A study of Homo sapiens with 7 samples.

Results

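The complement regulator CD55, the secreted pentraxin PTX3 and 7 further complement genes were followed on 7 expression arrays of Panc1, a long-established line of human pancreatic cancer cells. The genes are CD55, CD46, CD59, CFI, PTX3, C1R, C1S, C3 and CFB. They were chosen by symbol after the difference of CD55 and PTX3 between the arms of these same arrays was known, so the comparison of arms describes them and tests nothing about them. A probe set is a group of short probes that together read 1 target. The 9 genes were read by 20 probe sets annotated to exactly 1 symbol, out of 19775 genes and 54613 probe sets on the array. Of the 20, CD59 had 5, CD55 and CD46 had 3 each, CFI, CFB and C1S had 2 each, and PTX3, C3 and C1R had 1 each.

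All cells were single-cell clones of stably transfected Panc1 carrying a pcDNA3.1/V5-His plasmid. In the S100P-labelled arm the plasmid held S100P, a small calcium-binding protein, with the V5-His tag. In the vector arm it held no insert. The first arm had 4 arrays of 2 clones, clone 1 and clone 5, with arrays a and b of each. The second had 3 arrays of 2 clones, with V3 on arrays a and b and V1 on 1 array. Each arm thus rests on 2 clones, and what is particular to a clone cannot be told apart from what the plasmid did. The study's stated aim was to find target genes of S100P. Nothing in the labels ties arrays a and b to different cultures, so p-values measure the spread between these arrays, which may be technical.

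Complement is a cascade of blood and tissue proteins that marks and lyses cells. C1R and C1S are the proteases of the first component and start the classical pathway. C3 is the component on which the pathways converge, and CFB supplies the protease of the alternative pathway. Host cells hold membrane regulators against it: CD55 speeds the decay of the convertases, CD46 is a cofactor for the protease CFI, which cuts C3b and C4b, and CD59 blocks assembly of the membrane attack complex. CD55 and CD59 are held in the membrane by a GPI lipid anchor. PTX3 is a long pentraxin that binds C1q, factor H and microbes, and is made at sites of inflammation by many cell types. Carcinoma cells commonly carry the membrane regulators, while the liver makes most of the circulating components.

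The values were log2 RMA values, so a difference of 1 is a doubling. The array medians lay between 4.51 and 4.58. Arrays of one clone correlated across probe sets at 0.996 to 0.998, and V1 correlated with the other 6 arrays at 0.982 to 0.990. V1 also carries another prefix in its label, so the arm values of the members and of the list genes named by rule were also computed without it. The probe set of S100P gave 5.80 and 5.95 for clone 1, 5.36 and 5.45 for clone 5, 5.65 and 6.01 for V3, and 4.65 for V1 (difference 0.27, SE 0.32, limma adjusted p = 0.846). It did not separate the arms. Whether it can detect the inserted S100P was not analysed here, and directions are those of the arms as labelled. The line is epithelial, and none of 5 epithelial markers (keratins and EPCAM) lay below the array medians throughout, with a list median of 10.59 to 12.36. Between the arms 3 of the 5 had an unadjusted p under 0.05, against 15.1% of all genes, and limma called 0, against 1.55%. KRT8 differed by -0.95 (SE 0.36), KRT18 by -0.55 (SE 0.21) and KRT7 by -0.87 (SE 0.18). KRT19 differed by -0.63 (SE 0.38) and EPCAM by 0.02 (SE 0.17). Against the mean of the vector clones KRT8 was at -1.44 in clone 1 and -0.29 in clone 5. KRT18 was at -0.86 in clone 1 and -0.16 in clone 5. KRT7 was lower on every S100P-labelled array, and the part of these markers in the CD55 and PTX3 differences was not tested. The list medians of leukocyte, endothelial, fibroblast, hepatocyte and acinar markers lay between 2.98 and 4.64 on every array. Below the median on all arrays were 2 of 5, 2 of 4, 3 of 5, 4 of 6 and 2 of 3 of them, while CD74, PECAM1, COL1A1, APOA1 and TTR were above it on all.

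CD55 and PTX3 were the members on which the arms stood farthest apart, so their promoters are shown. Each line gives the 250 bases before the RefSeq start site in GRCh38.p14, 5' to 3' on the plus strand, at chr1:207321428-207321677 for CD55 and chr3:157436600-157436849 for PTX3. Capitals mark the matches to the motifs searched.

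CD55: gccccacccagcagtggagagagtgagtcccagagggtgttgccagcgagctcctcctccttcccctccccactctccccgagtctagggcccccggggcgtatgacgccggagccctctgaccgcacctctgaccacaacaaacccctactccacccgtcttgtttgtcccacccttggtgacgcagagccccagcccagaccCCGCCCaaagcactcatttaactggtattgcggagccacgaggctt

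PTX3: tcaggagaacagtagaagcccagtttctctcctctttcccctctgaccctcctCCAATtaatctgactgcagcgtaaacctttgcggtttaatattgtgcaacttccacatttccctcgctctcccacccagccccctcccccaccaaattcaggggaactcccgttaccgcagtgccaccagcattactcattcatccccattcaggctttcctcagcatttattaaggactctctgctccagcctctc

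The motifs, searched on both strands, were the GC box GGGCGG, the CCAAT box, the TATA box TATAAA, the cyclic AMP element TGACGTCA, the AP-1 site TGANTCA, and consensus letters of the NF-kB site and of the interferon-stimulated response element (ISRE). The CD55 window held 1 GC box, which starts 46 bases before the start site on the minus strand, and the capital letters show its complement. The PTX3 window held 1 CCAAT box, 197 bases before the start site. A GC box was in 42.64% and a CCAAT box in 32.01% of 35116 RefSeq promoter windows of that length. Neither window held a match to the other motifs, which says only that these letters are not in these 250 bases. Looser spellings of the sites were not searched. The PTX3 window holds ggggaactcc, which has G at a place where the NF-kB letters searched have A. The CFB window, on chromosome 6, held an NF-kB match 185 bases, an ISRE match 140 bases and a TATA box 30 bases before the start site. These motifs were in 4.306%, 3.021% and 10.72% of all windows, AP-1 in 6.573% and the cyclic AMP element in 1.646%. GC made up 64.0% of the CD55 window and 51.6% of the PTX3 window. Promoter windows were found for 7 of the 9 genes, and those of C3 and C1S were not used here.

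CD55 was several-fold higher on every S100P-labelled array. At its brightest probe set clone 1 gave 10.17 and 10.02, and clone 5 gave 9.58 and 9.57. V3 gave 7.10 and 7.22, and V1 gave 6.96. The arms did not overlap, and the lowest S100P-labelled array lay more than 2 log2 units above the highest vector array. The arm means were 9.84 ± 0.30 (SD, n = 4) and 7.10 ± 0.13 (SD, n = 3), and the fitted difference was 2.75 (SE 0.17), or 6.74-fold. A further CD55 probe set ran from 8.89 to 9.64 on the S100P-labelled arrays and from 6.14 to 6.58 on the vector arrays, a 7.47-fold difference (2.90, SE 0.20). The last ran from 8.84 to 9.56 and from 6.13 to 6.64, a 6.82-fold difference (2.77, SE 0.20). All 3 probe sets of CD55 thus gave the same direction and a similar size. Without V1 the difference at the brightest probe set was 2.67 (6.38-fold).

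PTX3 was lower on every S100P-labelled array. Its single probe set gave 3.03 and 2.86 for clone 1 and 2.87 and 3.07 for clone 5. It gave 5.93 and 6.19 for V3 and 6.01 for V1. Both arms were tight, with 2.96 ± 0.11 (SD, n = 4) against 6.04 ± 0.14 (SD, n = 3), and the gap between them was many times the spread within either. The fitted difference was -3.08 (SE 0.12), or 8.46-fold lower. All 4 S100P-labelled values lay below the array medians, so PTX3 may be near the floor of the array there. The size of the fold is therefore uncertain, and a spread among these 4 arrays may go unmeasured. Without V1 PTX3 was 8.58-fold lower.

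**Figure D1:**
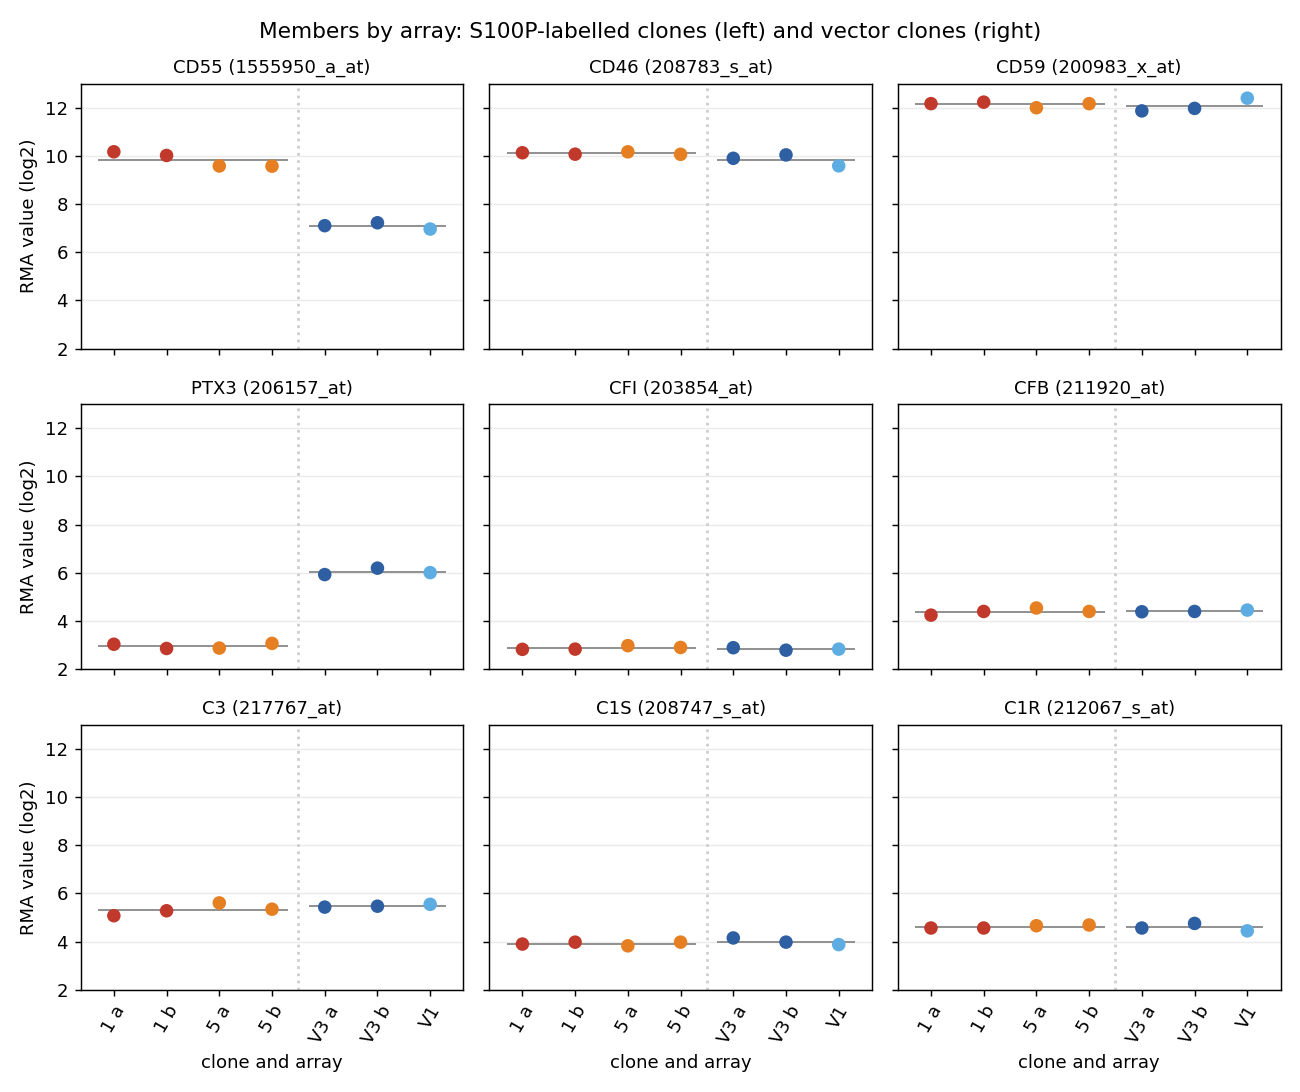
RMA values (log2) of the 9 genes, each at its probe set of highest mean, on the 7 arrays; points are arrays coloured by clone, and grey lines are arm means. CD55 lies at 9.57 to 10.17 on the S100P-labelled arrays and 6.96 to 7.22 on the vector arrays, and PTX3 at 2.86 to 3.07 and 5.93 to 6.19; levels of different genes are not comparable.

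The other membrane regulators did not share the CD55 difference. At the brightest probe set of CD46, the cofactor of CFI, clone 1 gave 10.13 and 10.07, clone 5 gave 10.17 and 10.07, V3 gave 9.90 and 10.04, and V1 gave 9.59. The arms just failed to overlap there, with V1 the lowest array. The difference was 0.29 (SE 0.12), or 1.22-fold, while it was 0.14 (1.10-fold) without V1 and 0.52 (1.44-fold) without V3. At the other CD46 probe sets the differences were -0.13 (SE 0.14) and -0.10 (SE 0.12), and the arms overlapped. CD46 thus had no common direction over its 3 probe sets.

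CD59, the inhibitor of the membrane attack complex, was bright in both arms. At its brightest probe set clone 1 gave 12.17 and 12.23, clone 5 gave 12.00 and 12.17, V3 gave 11.87 and 11.97, and V1 gave 12.40. The highest and the lowest arrays were both vector arrays, and the difference was 0.04 (SE 0.14). Differences of 0.11 (SE 0.13) and 0.05 (SE 0.14) at the next probe sets were as small. On these 3 probe sets the sign depended on the vector clone, with 0.22, 0.28 and 0.25 without V1 but -0.25, -0.14 and -0.25 without V3.

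The remaining CD59 probe sets, the fourth and the fifth by mean, behaved otherwise. The fourth gave 10.37 and 10.28 for clone 1, 9.98 and 10.26 for clone 5, 9.59 and 9.92 for V3, and 9.47 for V1. The fifth gave 7.32 and 7.15 for clone 1, 6.96 and 6.96 for clone 5, 6.57 and 6.70 for V3, and 6.61 for V1. On both, every S100P-labelled array lay above every vector array, by 0.58 (SE 0.15, 1.49-fold) and 0.47 (SE 0.11, 1.39-fold). These differences were 0.47 and 0.46 without V1. Which CD59 transcripts each probe set reads was not analysed here.

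The fluid-phase members were dim or level. C3 gave 5.07 and 5.28 for clone 1, 5.61 and 5.34 for clone 5, 5.43 and 5.47 for V3, and 5.55 for V1, with overlapping arms and a difference of -0.16 (SE 0.14). C3 was above the median of every array. C1R, the first protease of the classical pathway, ran from 4.45 to 4.75, below the median on 1 of 7 arrays, with a difference of 0.04 (SE 0.10). Its partner C1S ran from 3.82 to 4.15 at the brighter probe set, with -0.07 (SE 0.10). CFB ran from 4.24 to 4.54, with -0.02 (SE 0.10), and CFI from 2.79 to 2.97, with 0.05 (SE 0.09). Of the 7 probe sets of CFI, CFB, C1S and C1R, 6 lay below the median of all 7 arrays and none differed by more than 0.13 between the arms. All 7 also held a value shared exactly by 2 or more arrays, 5 of 7 arrays in the case of 1 CFI probe set. At such signals a fall of the transcript may go unmeasured, so these differences do not show that the genes were unchanged.

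**Figure D2:**
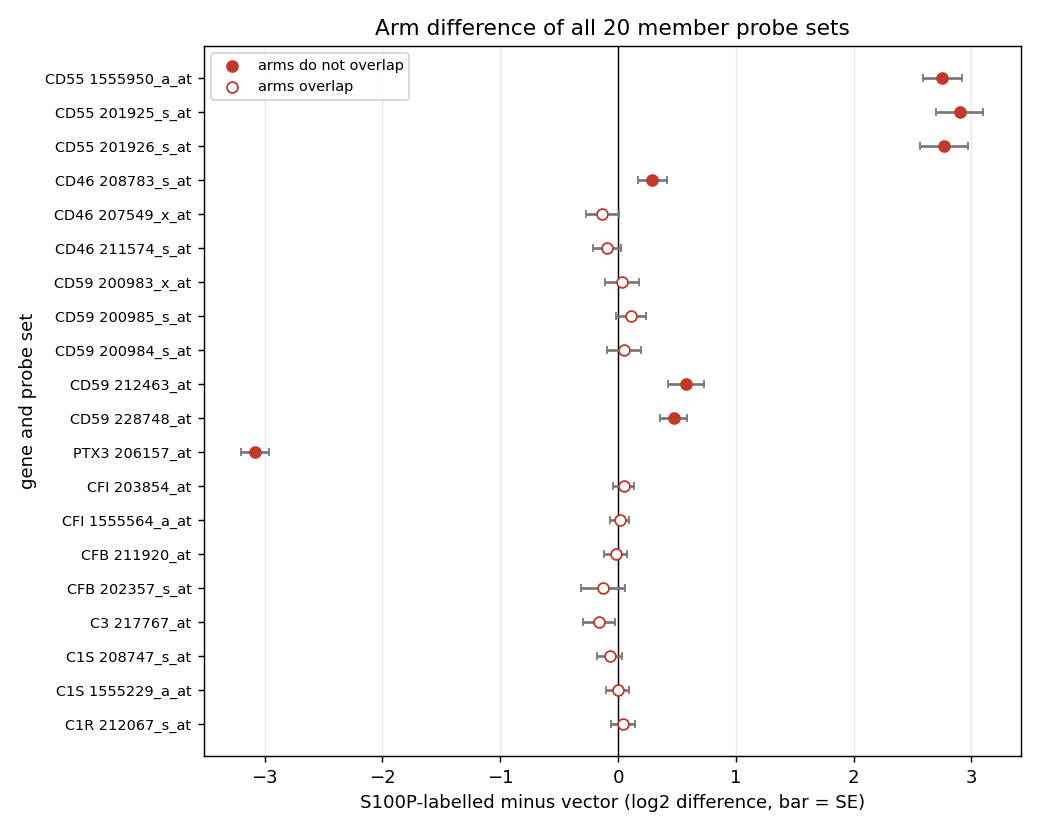
Fitted log2 difference between the S100P-labelled and the vector arm for the 20 member probe sets, with the standard error as a bar; filled points are probe sets whose arms do not overlap. The 3 CD55 probe sets lie between 2.75 and 2.90 and PTX3 lies at -3.08, while the other 16 lie between -0.16 and 0.58.

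As a description, 4 of the 20 probe sets passed the limma threshold between the arms, the 3 of CD55 and the 1 of PTX3, where 1.12% of all probe sets did. Per gene this was 2 of 9, against 1.55% of all genes. Since CD55 and PTX3 were selected on this contrast, nothing is read from these counts. The arms did not overlap on 7 of the 20, against 11.4% of all probe sets, namely on those 4, on 1 of CD46 and on 2 of CD59. The median difference over the 9 genes was 0.04, against -0.00 over all genes. When each clone was averaged first, CD55 did not pass at any probe set while PTX3 did, although the CD55 difference was then 2.77.

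The clones of an arm were compared in a separate limma fit, a contrast that did not enter the choice of members. It uses the spread between arrays of a clone and so compares these clones, not conditions. CD55 was lower in clone 5 than in clone 1 at all 3 probe sets. The differences were -0.60 (SE 0.11, limma adjusted p = 0.0435) and -0.58 (SE 0.10, adjusted p = 0.0382), or 1.51-fold and 1.49-fold. At the brightest it was -0.52 (SE 0.10, limma adjusted p = 0.0504), which did not pass. Both arrays of clone 5 lay below both of clone 1 at each of them. These were the 2 of 20 member probe sets called, where 2.19% of all probe sets were called. Neither call held with any array of clones 1, 5 or V3 left out, where the differences ran from -0.67 to -0.50. At the brightest probe set clone 1 stood 8.18-fold and clone 5 stood 5.72-fold above the mean of the vector clones. The order of CD55 by clone was therefore clone 1, clone 5, V3 and V1, and V3 and V1 did not differ at the threshold at any CD55 probe set (limma adjusted p = 0.439, 0.186 and 0.0742). The 3' minus 5' signal of ACTB, a measure of RNA quality, was also highest on clone 1 (0.53 and 0.44) and lowest on V1 (0.18). It was alike on clone 5 (0.29 and 0.27) and V3 (0.28 and 0.32), whose CD55 means were 9.58 and 7.16. The median of the 5 epithelial markers was 10.63 and 10.59 on clone 1 and 11.61 and 11.92 on clone 5. The part of these measures in the difference between clones 1 and 5 was not tested.

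PTX3 did not pass between clones of either arm. The difference was 0.03 (SE 0.13, limma adjusted p = 0.951) for clone 5 minus clone 1 and -0.05 (SE 0.16, limma adjusted p = 0.938) for V1 minus V3. In clones 1 and 5 PTX3 may be near the floor of the array, so a difference between them may go unmeasured. CD59 was higher in V1 than in V3 by 0.50 (SE 0.11, 1.42-fold, limma adjusted p = 0.0494) at its probe set of the third highest mean, the 1 of 20 called there, where 5.85% of all probe sets were called. The brighter CD59 probe sets gave 0.48 (adjusted p = 0.0733) and 0.42 (adjusted p = 0.0742) in the limma fit, and the fourth gave -0.29 (adjusted p = 0.448). The CD59 call was lost when arrays were centred on their medians and with any array of clones 1, 5 or V3 left out, although the difference stayed between 0.43 and 0.57. V1 is 1 array, so clone and array cannot be told apart. C3 was 0.30 higher in clone 5 than in clone 1 (SE 0.12, limma adjusted p = 0.306), which did not pass. By gene, at the brightest probe set, limma called 0 of 9 members in either contrast of clones, with 2 of 9 at an unadjusted p under 0.05 in each. Of all genes, 3.02% were called for clone 5 minus clone 1 and 7.72% for V1 minus V3. An unadjusted p under 0.05 was found for 18.1% and 24% of all genes, so 2 of 9 is near that share.

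**Figure D3:**
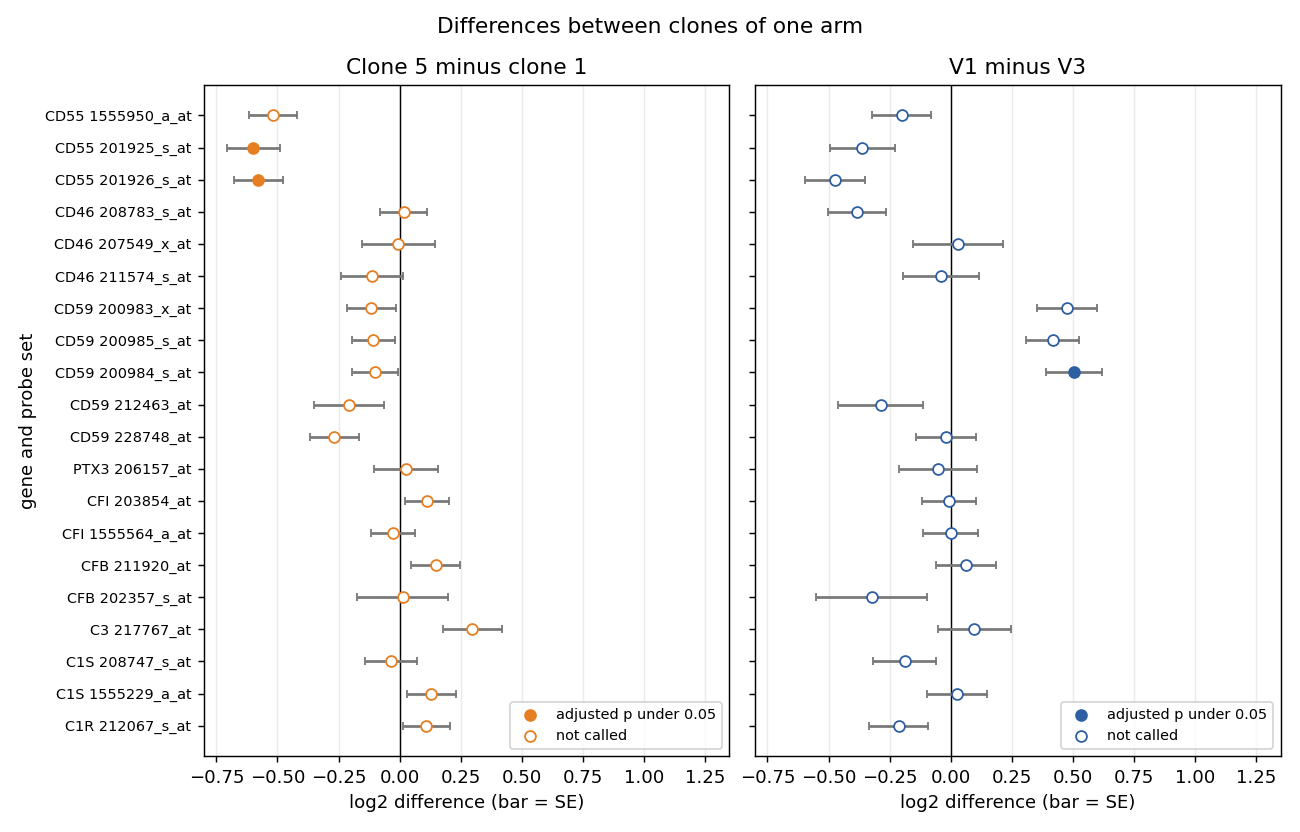
Log2 difference between the clones of one arm for the 20 member probe sets, clone 5 minus clone 1 on the left and V1 minus V3 on the right, with standard errors as bars and called probe sets filled. The called values are -0.60 and -0.58 for CD55 on the left and 0.50 for CD59 on the right.

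The wider pathway was read in 10 lists of other genes, of which 98 of 109 were measured by a probe set of a single symbol. Only 4 were called between the arms, all higher on the S100P-labelled arrays, where 1.03% of all genes were called higher. The terminal component C5 rose 2.04-fold (difference 1.03, SE 0.17, limma adjusted p = 0.0361). It read 6.02, 6.17, 5.95 and 5.73 on the S100P-labelled arrays and 5.11, 5.20 and 4.60 on V3 and V1, with no overlap. C5 was 1.76-fold higher without V1 and passed in 7 of 16 alternative settings. The TNF receptor gene TNFRSF1A rose 1.66-fold (difference 0.73, SE 0.11, limma adjusted p = 0.0189) and passed in 11 of 16. It read 10.32, 10.36, 10.13 and 10.40 against 9.52, 9.65 and 9.54.

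The other 2 called genes belong to the machinery of the GPI anchor that CD55 and CD59 carry. PIGU, a subunit of the transamidase that attaches the anchor, rose 1.51-fold (difference 0.59, SE 0.10, limma adjusted p = 0.0379). PGAP2, which remodels the lipid of the anchor, rose 1.51-fold (difference 0.60, SE 0.10, limma adjusted p = 0.0394). They passed in 6 and 7 of 16 alternative settings, and without V1 their differences were 0.60 and 0.53. Of the 27 anchor genes measured, 2 were called higher and 0 lower, and 7 had all S100P-labelled arrays above all vector arrays and 0 the reverse, where 8.67% of all genes had the former. The median difference of the list was 0.20, against -0.00 over all genes. Its median for V1 minus V3 was -0.17, against 0.02 over all genes, and V1 is 1 array. The part of V1 in the difference between the arms was not tested. Of the 27 genes 0 lay below the median on all arrays, against 6320 of all 19775 genes, so the 2 sets differ in brightness. The largest value not called was 1.08 (SE 0.21, limma adjusted p = 0.0552) for DPM3, a subunit of dolichol-phosphate mannose synthase. This gene was chosen after its value was seen. DPM3 read 8.59 to 8.72 on the S100P-labelled arrays, 7.72 and 8.03 on V3, and 7.11 on V1, so V1 widens its difference.

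Most other complement genes were dim. Of the 14 initiation genes measured 10 were below the median on all 7 arrays, as were 5 of 7 terminal components and 6 of 8 soluble regulators. So were 7 of 10 receptors and 3 of 7 other membrane regulators, against 6320 of all 19775 genes. At the brightest probe set of each gene limma called 0 of the other 45 genes of these lists beside C5, with 1 at an unadjusted p under 0.05. Among all genes 1.55% were called and 15.1% had an unadjusted p under 0.05. A count of 0 in 45 is near the former share, and at dim signals a difference may go unmeasured. As values, C2 differed by -0.12 (SE 0.12) and C1RL by 0.12 (SE 0.19) in the initiation list. The dimmer of the C1RL probe sets was called, at 4.41 to 4.65 on the S100P-labelled arrays and 3.32 to 3.76 on the vector arrays (difference 0.91, SE 0.15, limma adjusted p = 0.0301), so the probe sets of this C1R-like gene disagreed. In the alternative pathway CFD, the protease that cuts factor B, read 8.35, 8.33, 8.03 and 8.03 against 7.40, 7.68 and 6.51. Its arms did not overlap, but with a difference of 1.05 (SE 0.27, limma adjusted p = 0.137) it did not pass. The CFD difference was 0.64 without V1. Without V3 it was 1.68, but there V1, the lowest array, alone stands for the vector arm. The soluble regulator clusterin (CLU) differed by -0.02 (SE 0.24). In the receptor list C1QBP, a binding protein of C1q, differed by -0.28 (SE 0.16) and ITGAM by -0.03 (SE 0.14). Of the pentraxins, 4 were measured. In the limma fit 0 of them were called and 1 had an unadjusted p under 0.05, against 1.55% and 15.1% of all genes. The pentraxin receptor gene NPTXR differed by 0.69 (SE 0.21, limma adjusted p = 0.219). Its difference was 0.38 without V1 and 1.18 without V3, the latter again with V1 alone in the vector arm. Among binding partners, ADGRE5 (CD97), the adhesion receptor that binds CD55, read 9.25 to 9.43 on the S100P-labelled arrays and 9.12 to 9.27 on the vector arrays, with 0.13 (SE 0.09). FGF2, which PTX3 binds, differed by -0.08 (SE 0.29).

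**Figure D4:**
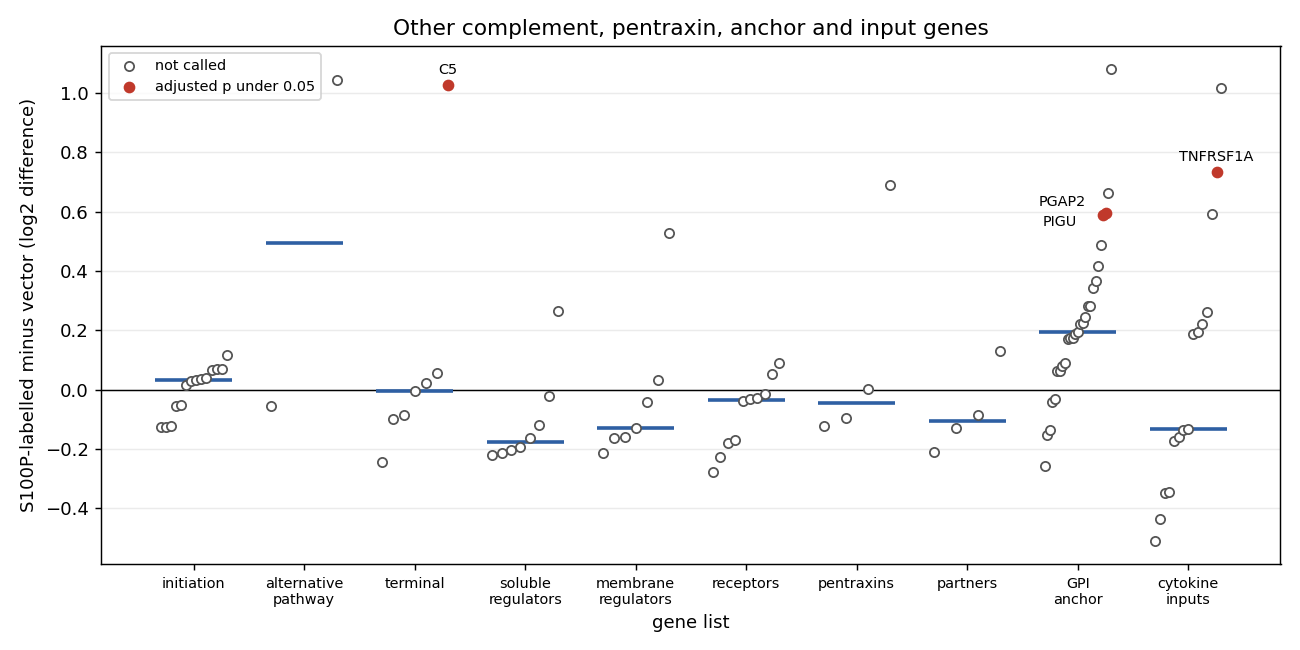
Log2 difference between the arms for 98 genes in 10 lists around complement, each at its probe set of highest mean; filled red points passed the limma threshold, and blue lines are list medians. C5, PIGU, PGAP2 and TNFRSF1A are the called genes, between 0.59 and 1.03, and the anchor list has a median of 0.20.

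Between the S100P-labelled clones, 5 of the 98 list genes were called, all lower in clone 5, where 2.35% of all genes were called lower. FGF2 was 2.12-fold lower (difference -1.08, SE 0.09, limma adjusted p = 0.00360). The transcription factor genes IRF1 and CEBPB, both used by inflammatory signals, were 1.83-fold and 1.80-fold lower (limma adjusted p = 0.0136 and 0.0150). THBD and IFNGR1, named after their values were seen, were 1.76-fold and 1.54-fold lower. Between V1 and V3, 12 of the 98 were called, 10 lower and 2 higher in V1, where 7.72% of all genes were called. IL1R1, the receptor of interleukin-1, was 2.12-fold lower (limma adjusted p = 0.0268), CFD 2.05-fold lower (adjusted p = 0.00919) and CEBPB 1.97-fold lower (adjusted p = 0.0102) in the limma fit. The 2 higher ones were the anchor genes PIGW and PIGX, also named after their values were seen.

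The genes whose profile over the 7 arrays came nearest to CD55 were IGFBPL1, FOXP1, DSC2, TMEM45A and DNAJC6. Likeness was the root mean square distance between values centred on each gene's own mean, over 19766 other genes, and these 5 lay at 0.20, 0.21, 0.23, 0.38 and 0.43. CD55 itself had a root mean square of 1.37 about its mean. FOXP1 had the same order of clones as CD55, at 8.06 and 8.01 for clone 1, 7.06 and 7.39 for clone 5, 4.94 and 4.97 for V3, and 4.32 for V1. IGFBPL1 did not separate clones 1 and 5, with 7.58 and 7.48 against 7.57 and 7.44. Nearest to PTX3 were KMO, TIAM1, SHH, IFIT3 and OPN3, at 0.27, 0.31, 0.35, 0.48 and 0.49. KMO was lower on V1 than on V3, at 6.60 against 7.13 and 7.24, while IFIT3 was level at 7.53 against 7.53 and 7.64, as PTX3 was. The 7 arrays share 4 clones, so likeness over them is mostly likeness of the arm difference.

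**Figure D5:**
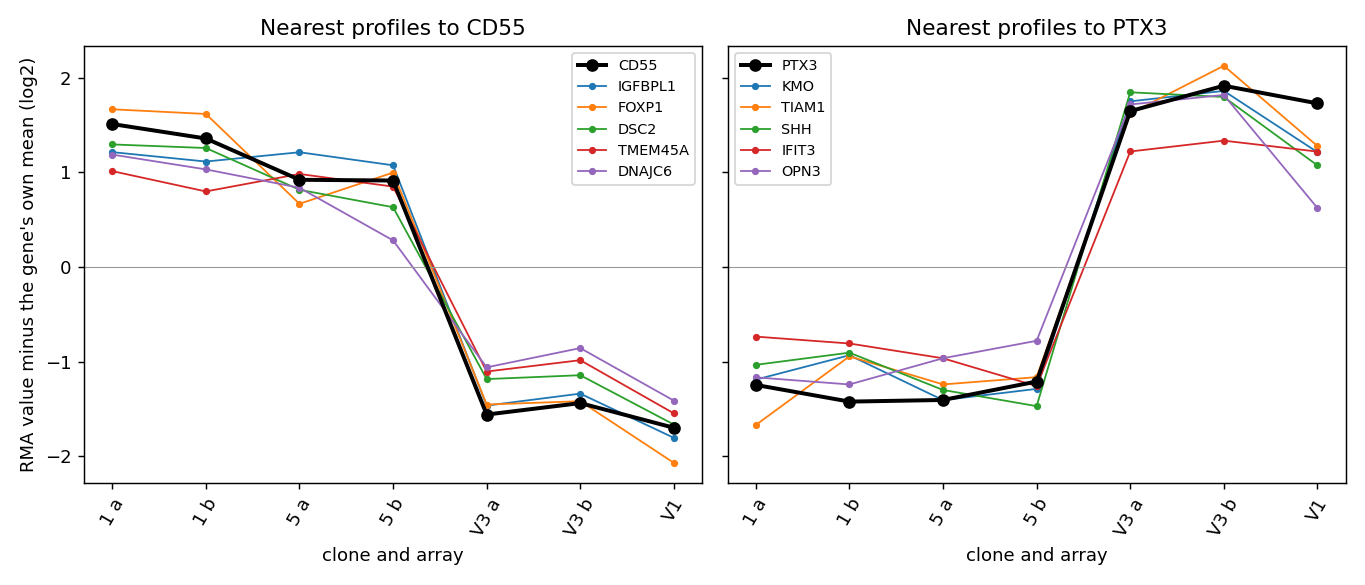
RMA values (log2) minus each gene's own mean on the 7 arrays, for CD55 (left, black) and PTX3 (right, black) and the 5 genes nearest to each. The CD55 group lies above its means on the 4 S100P-labelled arrays and below them on the 3 vector arrays, and the PTX3 group does the reverse.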

How the data were processed

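The deposited table holds log2 values that the authors made with RMA, per the submitters' processing notes. RMA corrects background, normalizes between arrays and summarises probe sets. Its version is not given in the sources used here, nor is it known whether the arrays were normalized in 1 run. The log2 scale was read from the range of the values. RMA can shrink differences at low signal, and 7 arrays limit the precision.

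Of 54675 probe sets, 62 controls were left out. Names came from the platform annotation, where 41091 of those kept had 1 symbol, 1801 several and 11721 none. Where a gene had several, the brightest on average (the highest mean over the 7 arrays) stood for it. limma 3.58.1 in R 4.3.3 (statmod 1.5.0) was fitted to all 54613 probe sets, for the arms with the clone as a random block (consensus correlation 0.287), and for clones with the 4 clones as fixed effects and 3 residual degrees of freedom. P-values were two-sided and adjusted by Benjamini-Hochberg over the 54613, with a threshold of 0.05. Both fits were tested on simulated data, where the share of false calls in the fit of the arms was above that threshold. Calls between the arms with an adjusted p near 0.05 are therefore less certain. The same clone correlation served every probe set, so for genes that differ strongly between clones of an arm the p-values may be too small.

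The members and lists were chosen with earlier results of these data known. Named genes were all members, up to 4 called genes of each list or otherwise up to 2 of largest difference with a mean of at least 5, up to 3 called list genes for each pair of clones, and the 5 nearest profiles. A list with no gene called and none of that mean has no named gene. Promoter sequences are from RefSeq. Alternatives are given at the end.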

Additional observations from a re-analysis of the deposited data

Results flagged for a closer look

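The S100P-labelled clones differed from each other in CD55. Clone 5 read lower than clone 1 by a log2 difference of -0.60 at one of its probe sets and -0.58 at another, each past the limma threshold. At the brightest probe set the difference was -0.52 (limma adjusted p = 0.0504) and did not pass, and both calls were lost with any array of clones 1, 5 or V3 left out. In none of the 20 member probe sets did 1 of the 4 S100P-labelled arrays stand apart from the other 3 by Dixon's test. That test takes the 4 arrays as replicates, although they are 2 clones with 2 arrays each. Where the clones differ, as for CD55, it can hardly set a single array apart.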

How the results depend on the processing

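The CD55 difference between the arms stayed between 2.46 and 2.99 over 15 alternatives (other scaling, no clone block, clone means, the mean of its probe sets, and each array or clone left out), and that of PTX3 between -3.14 and -3.01 over 14. CD59 at its brightest probe set ran from -0.25 to 0.25 and kept its sign in 11 of 15. Over all probe sets, 611 were called between the arms, but 8 when arrays of a clone were averaged first, 1103 without the clone block, 1355 without clone 5, 1675 without clone V3, and 159 to 1708 with 1 array left out. The highest of these is the fit without V1, in which V3 alone stands for the vector arm. Between clones 5 and 1, 1195 were called, 1813 with arrays centred on their medians, 2653 among probe sets with a mean of at least 5 and 0 to 1195 with 1 array left out. Between V1 and V3, 3195 were called, 5053 with that filter and 0 to 909 with 1 array left out. Where limma called 0, 4468 to 11733 probe sets had an unadjusted p under 0.05, and those fits have 2 residual degrees of freedom, 1 fewer than the fit of all arrays. No paired analysis was possible because each clone lies in 1 arm. Folds against dim signals, as for PTX3, are limited by the floor of the array.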

Other observations

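CD55 lies in a cluster of complement regulator genes on chromosome 1. In the RefSeq gene order of GRCh38.p14 its 5 nearest measured protein-coding genes on either side were C1orf116, PFKFB2, YOD1, C4BPB and C4BPA, and CR2, CR1, CR1L, CD46 and CD34. Between the arms 0 of these 10 were called in the limma fit (2 at an unadjusted p under 0.05), and their differences ran from -0.21 (CR1) to 0.73 (PFKFB2, which makes a regulator of glycolysis), beside 2.75 for CD55. The neighbours C4BPA and CR2, which encode another complement regulator and a complement receptor, differed by -0.19 and 0.09. Around PTX3, on chromosome 3, limma called 0 of 10 neighbours (4 at an unadjusted p under 0.05), and the differences ran from -0.73 (LXN) to 0.54 (MLF1), beside -3.08 for PTX3. Of all genes 1.55% were called between the arms and 15.1% had an unadjusted p under 0.05, so counts of 0 in 10 do not set the neighbours apart. Several of the neighbours are dim, and these genes were chosen after the values of CD55 and PTX3 were seen.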
